A study of Mus musculus with 14 samples.

Results

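Imprinted genes are expressed mainly from the copy inherited from 1 parent. The 47 genes described here were those of a list of mouse imprinted genes, taken with every probe annotated to them in the scanner table and in the authors' value table, and they stand among 16593 gene symbols with a probe. The list holds 24 genes known for maternal expression, 22 known for paternal expression, and Gnas, whose transcripts differ in their parental origin. A gene was kept when 1 of its probes reached a detection p-value below 0.05 on each array of 1 or more groups. H19, Slc22a3, Copg2, Meg3 and Zrsr1 had no annotated probe in the tables used here. Zim1, Sgce, Asb4, Kcnq1, Osbpl5, Rtl1, Plagl1, Rasgrf1 and Mcts2 had a probe and did not reach detection on both arrays of any group. The other 33 genes were tested, 16 of each parental class and Gnas. Imprinting is not equally broad in both classes. Among the maternally expressed genes, Ascl2, Cd81, Tssc4, Nap1l4 and Tspan32 are known as imprinted in placenta, and Ppp1r9a, Calcr and Commd1 in some tissues. Ube3a and Blcap are so in neurons, and H13 for some transcripts. Among the paternally expressed genes, Ddc is limited to some tissues and Inpp5f to some transcripts. Comparisons of the classes also compare this breadth. At the edge of that filter, Usp29 entered through its EpiSC levels of 5.80 and 6.78, whereas Asb4, with an EpiSC mean of 5.73 on its brighter probe, was detected on 1 EpiSC array and stayed out. Calcr and Usp29 entered through the EpiSC group alone and Nap1l5 through the fibroblasts alone, so a difference there was built into their selection. Tspan32 entered through the serum double-reporter groups alone and Ascl2 through the serum ESC groups alone. Mest entered through EpiSCs, fibroblasts and single-reporter ESCs alone. For these genes as well, selection favoured a difference from the groups without detection.

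Imprints are laid down in the germ line as DNA methylation at control regions, and after fertilisation the KRAB zinc finger protein ZFP57, which binds the hexamer TGCCGC when methylated, and its partner TRIM28 guard them while most of the genome is demethylated. Many paternally expressed genes favour fetal growth and many maternally expressed ones restrain it. Imprinted genes lie in clusters, so that neighbours can share a control region and be expressed from opposite parental copies. In mouse pluripotent cells, imprints are known to be prone to change in culture. Arrays give the summed signal of both parental copies, so none of the values below says which copy was read.

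Gene expression was measured on 14 Illumina bead arrays in 7 groups of 2. One embryonic stem cell (ESC) line with a pair of reporters came from O4-DE-GFP/O4-PE-RFP blastocysts. Its GFP is driven through the distal enhancer of Oct4 and its tdTomato (RFP) by a 6 kb Oct4 fragment that lacks this enhancer and keeps the proximal enhancer and promoter. It gave 4 groups, gated on the reporters. These were GFP+RFP+ and GFP+RFP- cells in serum with LIF, GFP+RFP- cells in N2B27 with LIF and 2i (the GSK3 inhibitor CHIR99021 at 3 µM and the MEK inhibitor PD0325901 at 1 µM), and GFP-RFP+ epiblast-like cells (EpiLCs). Of the remaining groups, epiblast stem cells (EpiSCs) are those which the labels derive from E6.5 epiblasts for replicate 1 and E6.6 for replicate 2. Mouse embryonic fibroblasts (MEFs) form another. The last holds ESCs in serum with LIF from O4-DE-GFP blastocysts, which carry only the GFP reporter (the single-reporter line) and for which the labels state no gate. All samples are labelled C57/B6, a single ESC line of each kind is named, and the labels leave the origin of the replicates unstated, so p-values measure the spread between arrays, which may be technical. In these bulk samples fewer cells of a type and less RNA per cell cannot be told apart.

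Levels are background-corrected, quantile-normalized log2 signals, and changes are differences of group means in 1 limma model over all 14 arrays, called at a Benjamini-Hochberg adjusted p below 0.05 over the 10481 genes tested. The 6 general pluripotency genes checked were detected in all 6 pluripotent groups, and only Nanog in MEFs. The 2 EpiSC arrays disagreed: 590 genes, 5.63% of those tested, lay more than 1 log2 apart, against 0.00954% to 0.191% in the other groups. For 15 fibroblast and feeder genes, the log2 of their summed signal was 12.3 on EpiSC replicate 1 and 13.8 on replicate 2. It was 13.2 to 13.3 in the serum double-reporter groups, 12.98 to 12.99 in 2i, 12.08 to 12.09 in EpiLCs, 16.3 to 16.4 in the single-reporter line and 17.7 in MEFs. The median 95% interval for a difference between a pair of groups was ±0.29 log2.

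**Figure D1:**
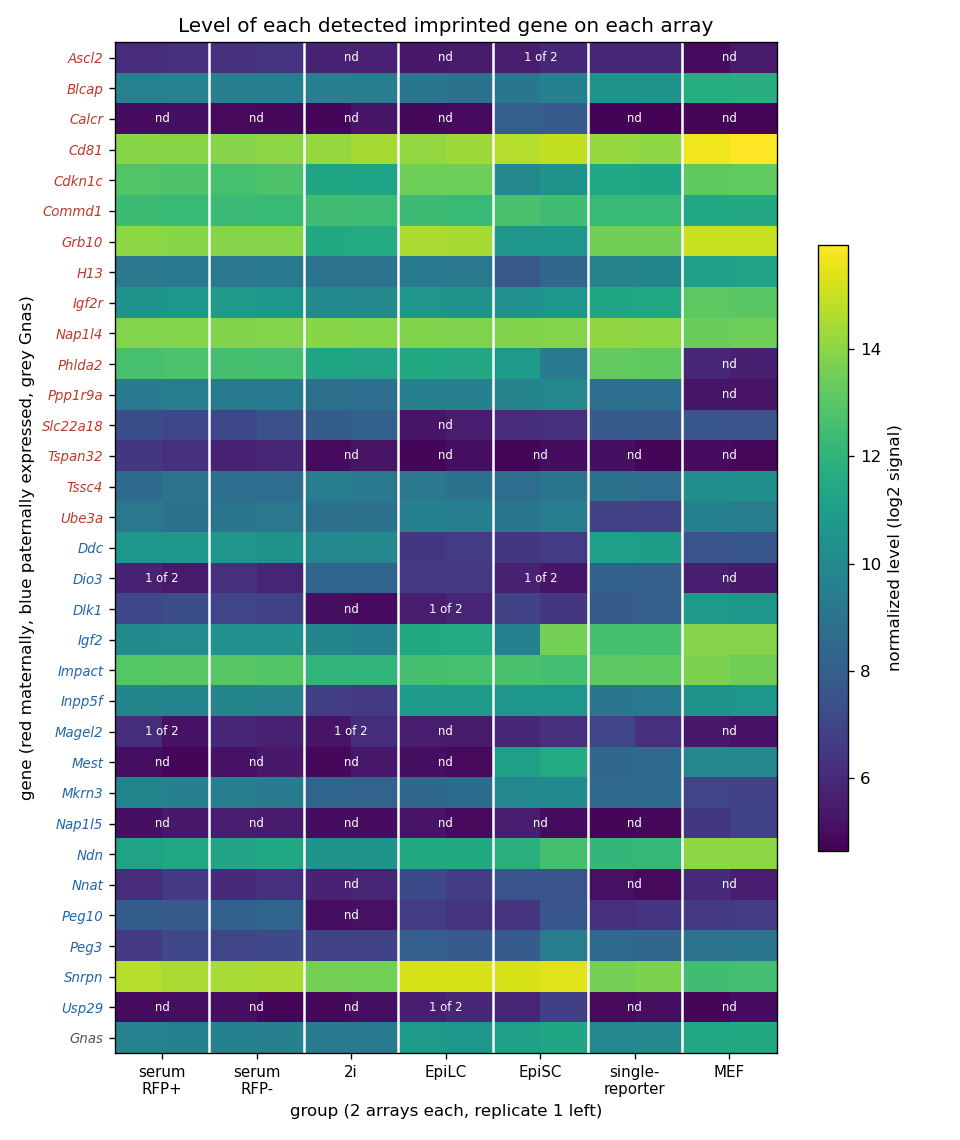
Level of the 33 tested imprinted genes (rows) on the 14 arrays (columns, replicate 1 left in each group), coloured by normalized log2 signal; nd marks groups in which the plotted probe was not detected on either array. Peg10 and Dlk1 were not detected in 2i, and Mest was not detected in any of the 4 sorted double-reporter groups.

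Reporter state within serum made no called difference to an imprinted gene. Between RFP+ and RFP- cells, 0 of 33 genes passed limma's adjusted threshold, where 0.124% of all tested genes did, and 0.0382% were lower by 2-fold or more. An unadjusted p below 0.05 was found for 3 of the 33 and for 578 of all tested genes. The count was 0 under each of the 23 alternative settings and array omissions as well. Grb10, for example, read 14.01 and 13.96 in RFP+ cells against 13.88 and 13.90 in RFP- cells, and Igf2 10.07 and 10.12 against 10.38 and 10.37. These pairs of arrays did not overlap, and the differences of 0.10 and -0.28 log2 were not called.

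Culture in 2i, compared with the serum cells of the same GFP+RFP- gate, went with more lower than higher imprinted genes. Peg10, Inpp5f, Grb10, Dlk1, Cdkn1c and Phlda2 fell, and Dio3 rose. In all, 4 of the 33 were higher and 15 lower, 57.6% of them, where 39.7% of all tested genes were called, 19.7% higher and 20% lower. The lower genes include Tspan32 and Ascl2, which passed the detection filter only through serum groups. By 2-fold or more, 1 was higher and 7 were lower, where 3.76% and 6.38% of all tested genes were. The median change of the 33 was -0.48 log2, beside 0.01 over all tested genes. With arrays scaled to a common median in place of quantiles, 7 were higher and 15 lower. Maternally expressed genes were 3 higher and 7 lower of 16, and paternally expressed genes 1 higher and 8 lower of 16. Markers of other cell types and states moved between the same arrays. Of 7 primed epiblast genes 6 were lower in 2i, their log2 summed signal going from 15.2 and 15.3 to 13.8 and 13.9, and of 8 naive genes 4 were higher. Of 7 extraembryonic endoderm genes 3 were lower, with sums of 10.5 and 10.7 against 8.90 and 8.91 (Dab2 read 9.63 and 9.59 against 6.11 and 6.39). Of 5 trophoblast genes 2 were higher and 1 lower: their sum of 13.6 and 13.7 against 14.1 and 14.2 lies almost wholly in Tfap2c, while Cdx2 and Gata3 were not detected in 2i. Of 15 fibroblast genes 3 were higher and 4 lower. Their part in these results was not tested.

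Among the paternally expressed genes, Peg10, a retrotransposon-derived gene required for placental development, read 8.15 and 8.28 in serum RFP- cells and 5.06 and 5.15 in 2i, where its probe was not detected. It was at least 5.14-fold lower in 2i (limma adjusted p 4.64e-05). Inpp5f, an inositol phosphatase gene with a paternally expressed short transcript, went from 9.79 and 9.72 to 6.75 and 6.59, a change of -3.08 log2 (SE 0.11, limma adjusted p 7.28e-08). For both genes the serum and 2i arrays were far apart. The other 2 Inpp5f probes did not reach detection in any group (highest levels 5.94 and 5.76), so that the change rests on 1 probe, and which transcript it reads was not tested.

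Dlk1 and Dio3, paternally expressed genes of the cluster that also holds the maternally expressed Meg3, moved in opposite directions. Dlk1, a transmembrane ligand related to Notch ligands, read 7.02 and 6.87 in serum RFP- cells and 5.13 and 4.97 in 2i, below detection there and at least 2.13-fold lower (limma adjusted p 2.24e-05). Dio3, the deiodinase that inactivates thyroid hormone, read 6.21 and 5.80 in serum and 8.31 and 8.27 in 2i, higher by 2.28 log2 (SE 0.17, limma adjusted p 7.09e-06). Of the other genes in this cluster, Rtl1 was not detected and Meg3 had no annotated probe.

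In the Snrpn cluster, 3 of 5 genes fell, where 20% of all tested genes were called lower. Mkrn3, a makorin ubiquitin ligase gene, went from 9.46 and 9.36 to 8.28 and 8.23 (-1.16 log2, SE 0.10, limma adjusted p 1.73e-05). Snrpn, which encodes a spliceosomal protein, went from 14.46 and 14.52 to 13.61 and 13.53 (-0.92 log2, SE 0.09, limma adjusted p 5.05e-05). Ndn (necdin, a growth suppressor of the MAGE family) changed by -0.81 log2, with a limma adjusted p of 0.00965 that became 0.0576 when serum RFP- replicate 2 was left out. Magel2 (-0.14 log2) and the maternally expressed Ube3a (-0.21 log2) were not called. Outside the cluster, Impact, an inhibitor of the eIF2 kinase GCN2, fell by 0.96 log2 (SE 0.09, limma adjusted p 2.73e-05), from 13.03 and 12.94 to 12.03 and 12.03.

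Among the maternally expressed genes, Grb10, an adaptor that restrains insulin and growth factor signalling, went from 13.88 and 13.90 in serum RFP- cells to 11.51 and 11.59 in 2i. This was a change of -2.34 log2 (SE 0.07, 5.07-fold lower, limma adjusted p 4.32e-08). Ddc, its paternally expressed neighbour, which encodes aromatic amino acid decarboxylase, also fell, by 0.53 log2 (SE 0.08). Cdkn1c, the cyclin-dependent kinase inhibitor p57, read 12.67 and 12.80 in serum and 11.31 and 11.20 in 2i (-1.48 log2, SE 0.14, limma adjusted p 3.78e-05). Igf2r, the receptor that clears IGF2, fell by 0.66 log2 (SE 0.10, limma adjusted p 0.000706), while Igf2 itself read 10.38 and 10.37 against 9.78 and 9.63.

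Igf2 was not called in that comparison (-0.67 log2, SE 0.92, limma adjusted p 0.609), and the spread of all groups in that model includes the EpiSC arrays, 9.62 and 13.60. Leaving out those arrays gave the same change with an adjusted p of 2.96e-05. The Kcnq1 cluster, where Cdkn1c lies, was divided: 3 genes rose and 4 fell of 8 tested. Of all tested genes, 19.7% were called higher and 20% lower. Phlda2, a brake on placental growth, went from 12.61 and 12.58 to 11.28 and 11.26 (-1.32 log2, SE 0.35, limma adjusted p 0.0136). Slc22a18, a transporter gene, rose from 7.09 and 7.46 to 7.98 and 8.15 (0.80 log2, SE 0.14, limma adjusted p 0.00183). Tspan32 and Ascl2, a transcription factor gene of the trophoblast, fell to below detection (limma adjusted p 0.00318 and 0.0205), Ascl2 by at least 1.34-fold, and Tssc4 (0.53 log2) and Cd81 (0.36 log2) rose. Tspan32 and Ascl2 passed the detection filter only through serum groups, so their selection favoured a fall. The Phlda2 call was lost without any 1 of the serum RFP- and 2i arrays, that of Ascl2 without serum RFP- replicate 2 or either 2i array, and that of Tssc4 without either serum RFP- array or 2i replicate 1, with limma adjusted p up to 0.0635, 0.137 and 0.115. The Cd81 call was lost in 10 of the 23 alternatives, 9 of them single arrays left out, with limma adjusted p up to 0.272.

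**Figure D2:**
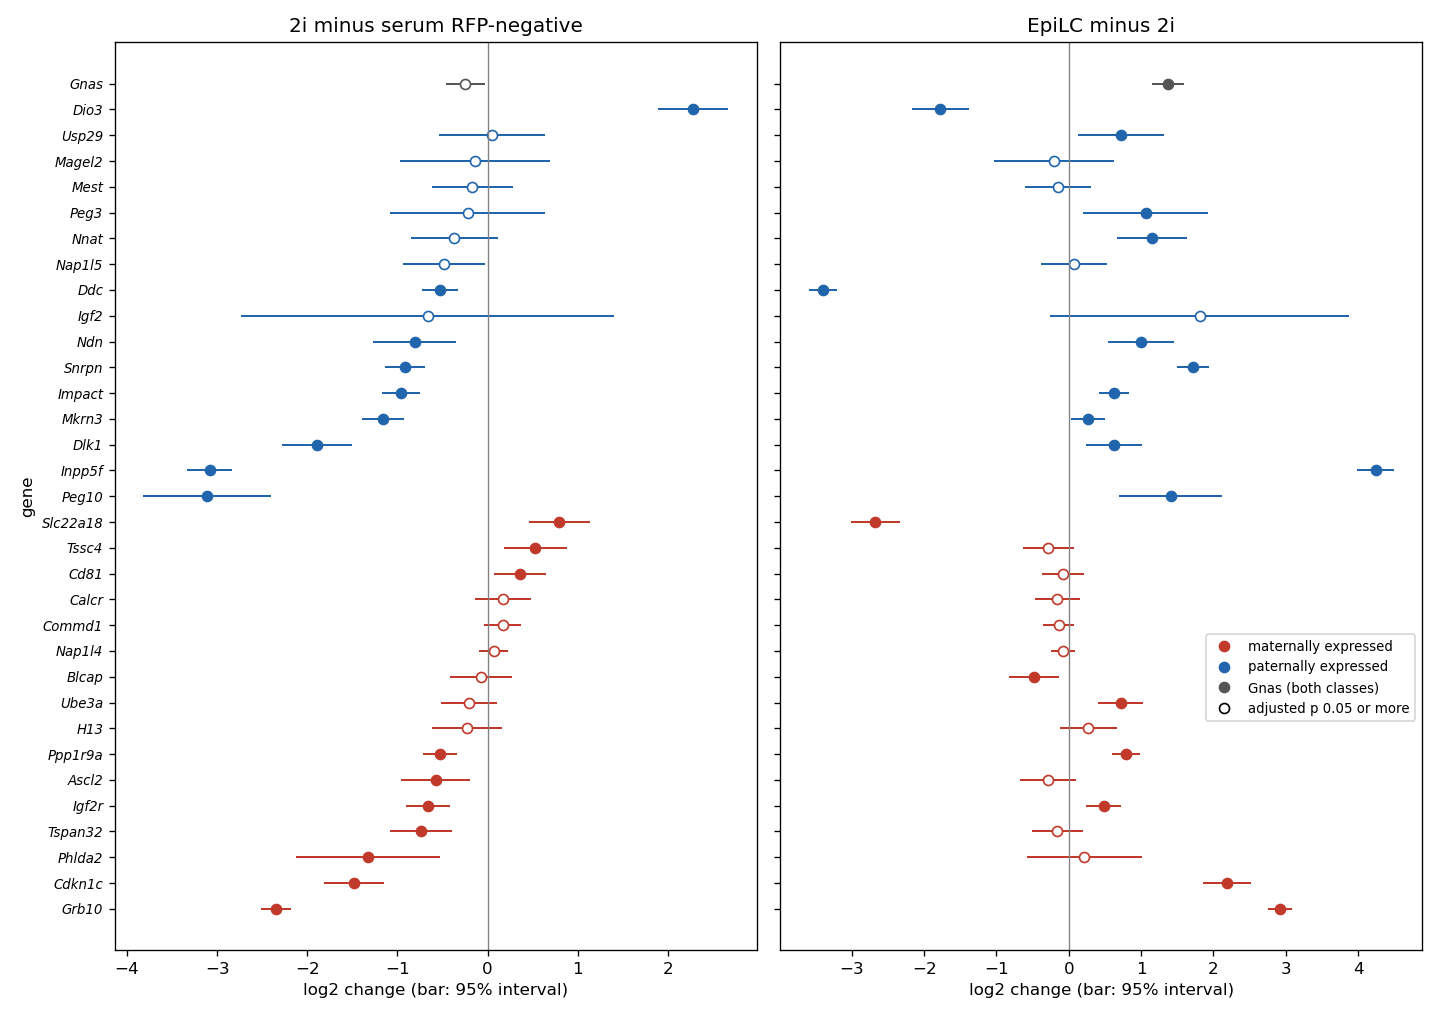
Log2 change of each of the 33 genes with its 95% interval, in 2i against serum RFP- cells (left) and in EpiLCs against 2i cells (right); red genes are maternally expressed, blue paternally expressed, grey is Gnas, and open points were not called. Fitted changes are drawn also where a side was not detected. Inpp5f and Grb10 lie at -3.08 and -2.34 on the left, and both panels use the same 2i arrays.

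The window from 250 bases before to 50 bases after the annotated start was examined for TGCCGC and its reverse complement GCGGCA, because a methylated copy of this hexamer is what ZFP57 binds. RefSeq windows (build GRCm38.p6) existed for 39 of the 47 genes. Of these, 14 genes (35.9%) held the hexamer in at least 1 of their windows, beside 13.1% of all 27025 genes. Counted by window, it was in 15 of 59 (25.4%) against 11.6% of all 32851 windows, and the windows of imprinted genes had a median of 16 CpG dinucleotides against 7. The hexamer itself holds a CpG, so the shares describe composition as well, and a match is not a binding site. The windows follow annotated starts and were not chosen to cover imprint control regions. The only Inpp5f window was not matched to its paternally expressed short transcript. Windows are shown for Grb10 and Inpp5f, which had the largest called falls in 2i among genes detected in both groups, and for Mest, described below, each as the window with the most hexamers and with the hexamers in capitals. Grb10 (chr11:12037371-12037670, minus strand) held 1 and Inpp5f (chr7:128611115-128611414, plus strand) held 0, while Mest (chr6:30737800-30738099, plus strand) held 2.
Grb10: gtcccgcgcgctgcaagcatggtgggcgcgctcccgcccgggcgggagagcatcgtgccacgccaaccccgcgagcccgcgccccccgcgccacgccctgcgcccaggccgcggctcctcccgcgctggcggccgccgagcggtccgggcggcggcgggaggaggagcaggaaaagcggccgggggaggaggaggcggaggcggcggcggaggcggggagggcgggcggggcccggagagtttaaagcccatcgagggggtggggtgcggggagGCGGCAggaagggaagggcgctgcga
Inpp5f: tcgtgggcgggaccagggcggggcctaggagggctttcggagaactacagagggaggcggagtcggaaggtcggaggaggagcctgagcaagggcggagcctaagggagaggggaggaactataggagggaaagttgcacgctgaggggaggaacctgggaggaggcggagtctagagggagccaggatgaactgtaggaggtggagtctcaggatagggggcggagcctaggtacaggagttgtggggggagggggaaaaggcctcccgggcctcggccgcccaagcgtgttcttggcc
Mest: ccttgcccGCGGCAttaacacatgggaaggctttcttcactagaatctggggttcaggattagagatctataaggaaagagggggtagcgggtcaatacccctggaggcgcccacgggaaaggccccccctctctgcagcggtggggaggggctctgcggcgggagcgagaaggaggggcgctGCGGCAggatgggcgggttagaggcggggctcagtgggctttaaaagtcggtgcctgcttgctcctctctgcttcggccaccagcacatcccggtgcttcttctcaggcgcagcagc
The Grb10 window was 80% G and C with 45 CpG dinucleotides, the Inpp5f window 65% with 15, and the Mest window 62.7% with 17.

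EpiLCs, the GFP-RFP+ cells of the same line, had higher levels than 2i cells for most of the imprinted genes that were called. Of the 33 genes 16 were higher and 4 lower (60.6%, against 55.1% of all tested genes, 27.5% higher and 27.6% lower), with a median change of 0.27 log2 beside -0.01. By 2-fold or more 8 were higher and 3 lower, where 11.7% and 8.97% of all tested genes were. Scaling to a common median, which put the median of all tested genes at -0.11 log2, gave 14 higher and 8 lower. Paternally expressed genes were 10 higher and 2 lower of 16, and maternally expressed genes 5 higher and 2 lower of 16. This comparison uses the same 2i arrays as the one above, so a low or high reading in 2i enters both with opposite sign. All 8 naive genes were lower in EpiLCs than in 2i (log2 sums of 15.94 and 15.97 against 10.72 and 10.78) and 6 of 7 primed epiblast genes were higher. Of 5 trophoblast genes 1 was higher and 2 were lower (sums of 14.1 and 14.2 against 10.2 on both arrays), of 7 extraembryonic endoderm genes 1 and 2, and of 15 fibroblast genes 3 and 8. Their part in these results was not tested.

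Inpp5f read 6.75 and 6.59 in 2i and 10.91 and 10.91 in EpiLCs, higher by 4.24 log2 (SE 0.11, limma adjusted p 1.95e-09). Grb10 rose from 11.51 and 11.59 to 14.53 and 14.41 (2.92 log2, SE 0.07, limma adjusted p 1.51e-09), and Cdkn1c from 11.31 and 11.20 to 13.45 and 13.44 (2.19 log2, SE 0.14, limma adjusted p 9.01e-07). All 3 genes stood above their serum RFP- level in EpiLCs, a pair of values given side by side without a test.

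Snrpn rose by 1.72 log2 (SE 0.09, limma adjusted p 2.49e-07) to 15.29 and 15.29. Gnas, which encodes the stimulatory G protein alpha subunit among other products, rose from 9.33 and 9.35 to 10.79 and 10.63 (1.37 log2, SE 0.09, limma adjusted p 1.2e-06). Peg10 rose at least 1.58-fold from below detection to 6.62 and 6.40, which left it under its serum RFP- readings of 8.15 and 8.28. Nnat (neuronatin, a membrane protein of neuroendocrine cells) was at least 2.11-fold higher, at 7.18 and 6.68. Peg3 (1.06 log2), Usp29 (detected on 1 EpiLC array) and Mkrn3 (0.27 log2) were called with limma adjusted p of 0.0368, 0.0368 and 0.0407. These calls were lost in 11, 12 and 12 of the 23 alternatives, among them the omission of either 2i array and of EpiLC replicate 2.

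The 4 genes called lower in EpiLCs were Ddc, Slc22a18, Dio3 and Blcap. Ddc went from 9.93 and 9.94 in 2i to 6.48 and 6.59 (-3.40 log2, SE 0.08, limma adjusted p 1.53e-09), the opposite direction to its neighbour Grb10. Slc22a18 went from 7.98 and 8.15 to 5.30 and 5.48, where this probe was not detected (limma adjusted p 2.48e-07), and no fold is given. Its other probe was close to the detection limit in both groups, with means of 6.00 and 5.77. Dio3 went from 8.31 and 8.27 to 6.51 and 6.51 (-1.78 log2, SE 0.17, limma adjusted p 1.22e-05), while its cluster partner Dlk1 was higher (limma adjusted p 0.00985) though detected on only 1 EpiLC array. Blcap, maternally expressed in brain, was lower (-0.48 log2, SE 0.15, limma adjusted p 0.019). The Dlk1 call was lost without 2i replicate 2 or EpiLC replicate 2, and the Blcap call without either 2i array or EpiLC replicate 2. Igf2 read 9.78 and 9.63 in 2i and 11.50 and 11.54 in EpiLCs and was not called (1.81 log2, SE 0.92, limma adjusted p 0.123), and without the EpiSC arrays the adjusted p was 1.82e-08.

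Smaller changes ran through the other clusters. Ppp1r9a read 9.34 and 9.30 in serum RFP- cells, 8.80 and 8.78 in 2i and 9.58 and 9.58 in EpiLCs, a change of -0.53 log2 in the first step and 0.79 log2 in the second (limma adjusted p 0.00053 and 1.65e-05). Its EpiSC arrays read 9.72 and 9.92, above all others in the study. Ndn (1.00 log2), Ube3a (0.72 log2), Impact (0.63 log2) and Igf2r (0.48 log2) were also higher in EpiLCs than in 2i, with limma adjusted p from 0.000195 to 0.00277. Nap1l4, a nucleosome assembly protein gene of the Kcnq1 cluster, differed by -0.08 to 0.07 log2 in the comparisons of 2i with serum, EpiLCs with 2i and EpiSCs with 2i, and none of these was called.

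**Figure D3:**
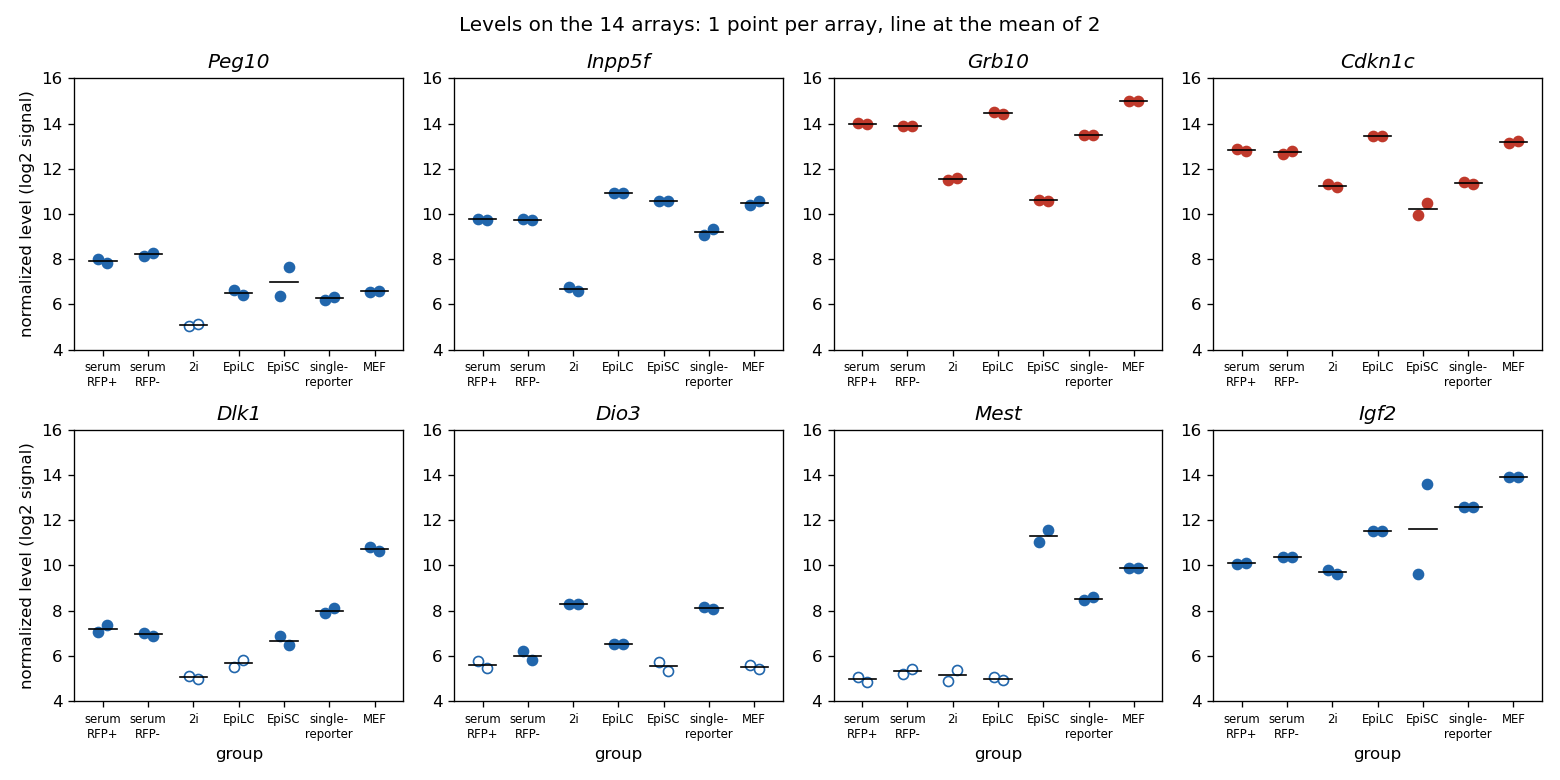
Levels of 8 imprinted genes on every array (log2 signal, 1 point per array, line at the mean of 2), maternally expressed genes in red and paternally expressed ones in blue; open points mark groups in which the probe was not detected on both arrays. Grb10 and Cdkn1c were low in 2i and EpiSCs and high in the serum double-reporter groups, EpiLCs and MEFs. Cdkn1c was low in the single-reporter line as well. Dio3 was high in 2i and the single-reporter line, and Igf2 was split between the EpiSC arrays.

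EpiSCs, cultured from postimplantation epiblast, had far lower Grb10 and Cdkn1c and far higher Mest than EpiLCs. Against EpiLCs, 11 of 33 were higher and 6 lower (51.5%, close to the 56.4% of all tested genes, 27.9% higher and 28.5% lower). By 2-fold or more 3 were higher and 4 lower, where 8.99% and 7.44% of all tested genes were. Calcr, which passed the detection filter only through EpiSCs, is among these higher genes. Mest is among them too, and it passed only through EpiSCs, fibroblasts and single-reporter ESCs, so selection favoured its rise. Grb10 read 10.64 and 10.60 in EpiSCs against 14.53 and 14.41 in EpiLCs (-3.85 log2, SE 0.07, 14.4-fold lower, limma adjusted p 8.95e-10). Cdkn1c read 9.96 and 10.49 against 13.45 and 13.44 (-3.22 log2, SE 0.14, limma adjusted p 1.44e-07). Both genes were lower on either EpiSC array than on any other array of the study. H13, a signal peptide peptidase gene, read 7.81 and 8.44 against 9.25 and 9.18 (-1.09 log2, SE 0.17, limma adjusted p 0.000396), and Dio3 was lower too (-0.97 log2, SE 0.17, limma adjusted p 0.000828). Dio3 was detected on only 1 EpiSC array, so the size of its change is uncertain.

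Mest, a paternally expressed gene of the alpha/beta hydrolase family that is active in embryonic mesoderm, had the largest change of the 33 genes between EpiSCs and EpiLCs. It read 11.03 and 11.58 in EpiSCs and 5.04 and 4.92 in EpiLCs, where it was not detected, and was at least 45.7-fold higher (limma adjusted p 1.64e-08). It was not detected on any of the 8 arrays of the sorted double-reporter groups, and its other 2 probes were not detected on the same 8 arrays. In MEFs it read 9.89 and 9.89, and in the single-reporter ESCs 8.46 and 8.58. The 15 fibroblast genes summed to 12.3 and 13.8 (log2) in EpiSCs, 16.3 and 16.4 in the single-reporter ESCs and 17.7 in MEFs, and their part in the Mest readings was not tested.

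Calcr, the calcitonin receptor gene of the Peg10 cluster, was detected only in EpiSCs, at 8.05 and 7.89, at least 4.54-fold above EpiLCs (limma adjusted p 1.35e-07), a difference that its selection built in. Another Calcr probe, also detected only in EpiSCs, had a mean of 6.54 there and differed from EpiLCs by 1.22 log2. The remaining Calcr probe was not detected on any array. Mkrn3 was higher by 1.47 log2 (SE 0.10, limma adjusted p 2.08e-06) at 9.93 and 10.05, and Dlk1 by 0.99 log2 (SE 0.17, limma adjusted p 0.000749) at 6.87 and 6.45. Of the extraembryonic endoderm list, all 7 measured genes were detected on both EpiSC arrays. Among them, Sox17 (8.06 and 6.76) and Foxa2 (7.99 and 6.53) were not detected in any other group. The list as a whole was not particular to EpiSCs. Its log2 sums were 11.3 and 11.5 there, 11.2 and 11.3 in single-reporter ESCs and 13.5 and 13.6 in MEFs. Gata6, Dab2 and Pdgfra were higher in MEFs than in EpiSCs. The part of these genes in the results was not tested.

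The EpiSC arrays differed by more than 1 log2 in 4 of 33 imprinted genes, where no other group had any. Igf2 read 9.62 on replicate 1 and 13.60 on replicate 2. Peg3, a zinc finger gene, read 7.93 and 9.45, and Peg10 6.36 and 7.65. Phlda2 ran the other way, at 10.80 and 9.32. Igf2 was therefore below EpiLCs (11.50 and 11.54) on 1 array and near the MEF level (13.91 and 13.91) on the other. Among fibroblast genes, Col1a1 read 6.04 and 9.57, Lox 6.55 and 10.26 and Dcn 7.59 and 11.13 on the same arrays, against 15.67 and 15.67, 15.71 and 15.52, and 13.30 and 13.30 in MEFs. The summed signal of the naive genes ran the other way, at 11.8 (log2) on replicate 1 and 9.87 on replicate 2. Esrrb read 11.32 and 8.16 and Zfp42 8.99 and 6.83. The list did not move together: Klf4 rose from 7.60 to 8.51. Nr5a2 and Tcl1 were detected on 1 array, and Tbx3, Prdm14 and Dppa3 on neither. The part of these differences in the readings of the 4 imprinted genes was not tested.

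Leaving out EpiSC replicate 2 turned the Igf2 change against EpiLCs from 0.09 to -1.90 log2 (limma adjusted p 1.69e-07), and leaving out replicate 1 gave 2.08 log2. The Phlda2 change against EpiLCs (-1.43 log2, SE 0.35, limma adjusted p 0.0062) was -0.69 and -2.17 log2 with replicate 2 or replicate 1 left out, and with only those 2 groups in the fit its adjusted p was 0.107. The changes of Grb10, Cdkn1c and Mest against EpiLCs stayed called when either EpiSC array was left out.

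**Figure D4:**
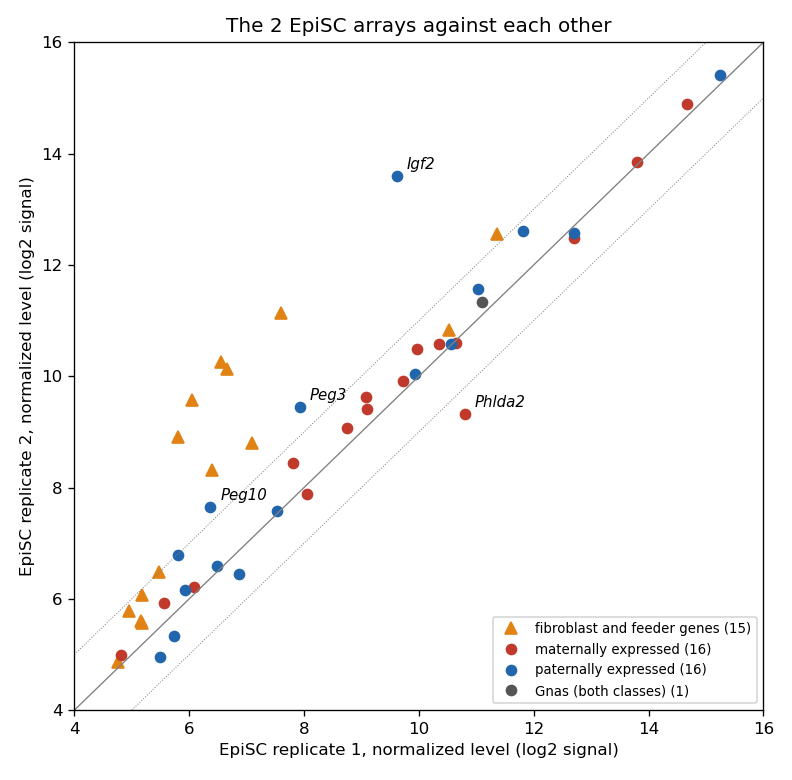
Normalized log2 signal on EpiSC replicate 2 against replicate 1 for the 33 imprinted genes (circles by parental class) and 15 fibroblast and feeder genes (triangles), with the line of equality and dotted lines 1 log2 away. Igf2, Peg3 and Peg10 lie above the upper dotted line and Phlda2 below the lower one, and 9 of the 15 fibroblast genes also lie above the upper line.

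Against 2i cells, EpiSCs had 17 of 33 imprinted genes higher and 8 lower (75.8%, against 66.3% of all tested genes, 32.4% higher and 33.9% lower). By 2-fold or more 13 were higher and 5 lower, where 15.2% and 12.4% of all tested genes were. These higher genes include the maternally expressed Calcr and the paternally expressed Usp29. Both passed the detection filter only through EpiSCs, so their rise was built into these counts and those of their classes. Mest, also among the higher genes, passed only through EpiSCs, fibroblasts and single-reporter ESCs, so selection favoured its rise as well. The 2i arrays are those of the comparisons above. Paternally expressed genes were 11 higher and 2 lower, with a median of 1.72 log2, and maternally expressed genes were 5 higher and 6 lower, with a median of -0.09 log2. The classes also differ in how broadly their genes are imprinted, and the part of this in the contrast was not tested. Inpp5f (3.90 log2, SE 0.11), Gnas (1.87 log2, SE 0.09), Nnat (at least 3.25-fold), Snrpn (1.76 log2, SE 0.09) and Mkrn3 (1.74 log2, SE 0.10) were among the higher genes. Ddc (-3.40 log2, SE 0.08), Dio3 (-2.75 log2, SE 0.17) and Slc22a18 (-1.93 log2, SE 0.14) were lower in EpiSCs than in 2i. Dio3 was detected on only 1 EpiSC array, so the size of its fall is uncertain. The other Slc22a18 probe, near the detection limit, changed by -0.26 log2. Grb10 (-0.93 log2, SE 0.07) and Cdkn1c (-1.03 log2, SE 0.14) were also below their 2i level in EpiSCs, whereas in EpiLCs they were above it by 2.92 and 2.19 log2. In EpiLCs, the changes of Ddc and Dio3 from the same 2i arrays were -3.40 and -1.78 log2.

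The single-reporter ESCs, grown in the same medium, differed from the mean of both serum double-reporter groups in 26 of 33 imprinted genes (14 higher, 12 lower, 78.8%, against 63.1% of all tested genes, 31.3% higher and 31.8% lower). By 2-fold or more 4 were higher and 5 lower, where 10.5% and 11.5% of all tested genes were. The 12 lower genes include Calcr and Nap1l5, which were not detected in any of the groups compared, so their calls rest on readings below detection. Mest was at least 7.18-fold higher (limma adjusted p 1.51e-07). It had passed the detection filter only through EpiSCs, fibroblasts and single-reporter ESCs. Tspan32 (-1.15 log2), among the genes lower by 2-fold or more, had passed only through the serum double-reporter groups. Selection favoured both of these differences. Igf2 read 12.60 and 12.60 against 10.07 to 10.38 on the 4 double-reporter arrays (2.36 log2, SE 0.79, limma adjusted p 0.0249, and up to 0.0987 without serum RFP+ replicate 1, or without any 1 array of the serum RFP- or single-reporter groups). Dio3 read 8.17 and 8.05 against 5.44 to 6.21 (2.31 log2, SE 0.15, limma adjusted p 5.93e-07), a level near that in 2i. In the other direction, Peg10 (-1.80 log2, SE 0.27), Cdkn1c (-1.42 log2, SE 0.12), Nnat (at least 1.34-fold) and Snrpn (-0.91 log2, SE 0.08) were lower, though the other Snrpn probe changed by only -0.01 log2.

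Ube3a, the ubiquitin ligase gene that is maternally expressed in neurons, read 6.89 and 6.86 in the single-reporter cells and 8.83 or more on every other array (-2.17 log2, SE 0.11, limma adjusted p 2.03e-07). Its second detected probe had a mean of 6.46 there, against 5.96 and 6.04 in the serum groups, so the probes disagreed. Commd1, a copper metabolism gene, likewise had 1 probe at 8.08 against 9.86 and 9.95 in the serum groups and another that changed by less than 0.01 log2. Fibroblast genes were higher in the single-reporter cells in 13 of 15. This line differs from the double-reporter line in genotype and line at once, and the labels state no gate for it. These differences, and any in gating, cannot be told apart. Primed epiblast genes were lower in 6 of 7.

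MEFs differed from the mean of the 6 pluripotent groups in 30 of 33 imprinted genes, 18 higher and 12 lower (90.9%, against 84% of all tested genes, 39.8% higher and 44.1% lower). By 2-fold or more 14 were higher and 6 lower, where 22.3% and 22.1% of all tested genes were. Nap1l5, which passed the detection filter only through MEFs, is among these higher genes. The 12 lower genes include Calcr, Tspan32 and Ascl2, which passed it only through EpiSCs, serum double-reporter groups and serum ESC groups, in that order. They were not detected in MEFs, so selection favoured their lower readings there as well. Dlk1 read 10.80 and 10.64, above the 4.97 to 8.10 of the 12 pluripotent arrays (4.13 log2, SE 0.13, limma adjusted p 1e-09). Igf2 (2.92 log2, SE 0.70), Ndn (2.52 log2, SE 0.15), Igf2r (2.48 log2, SE 0.08), Blcap (2.10 log2, SE 0.11), H13 (2.02 log2, SE 0.13) and Grb10 (2.00 log2, SE 0.05) were also higher, and each of their MEF arrays lay above all 12 pluripotent arrays.

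Phlda2 fell furthest. It read 5.91 and 5.65 in MEFs, below detection, against 9.32 to 13.22 on the pluripotent arrays, and was at least 52.2-fold lower (limma adjusted p 1.01e-08). Ppp1r9a, the neurabin gene of the Peg10 cluster, was at least 8.56-fold lower (limma adjusted p 1.37e-11), at 5.28 and 5.23 against 8.74 to 9.92. Mkrn3 (-2.11 log2, SE 0.08) and Snrpn (-1.94 log2, SE 0.07) were lower on both arrays than on any pluripotent array, while Ndn, from the same cluster, was higher. Mest (3.19 log2) spans the gap between silent and active pluripotent groups, so its MEF value of 9.89 lies inside the pluripotent range of 4.84 to 11.58. Slc22a18 (0.61 log2) lost its call when the mean of its probes was used.

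**Figure D5:**
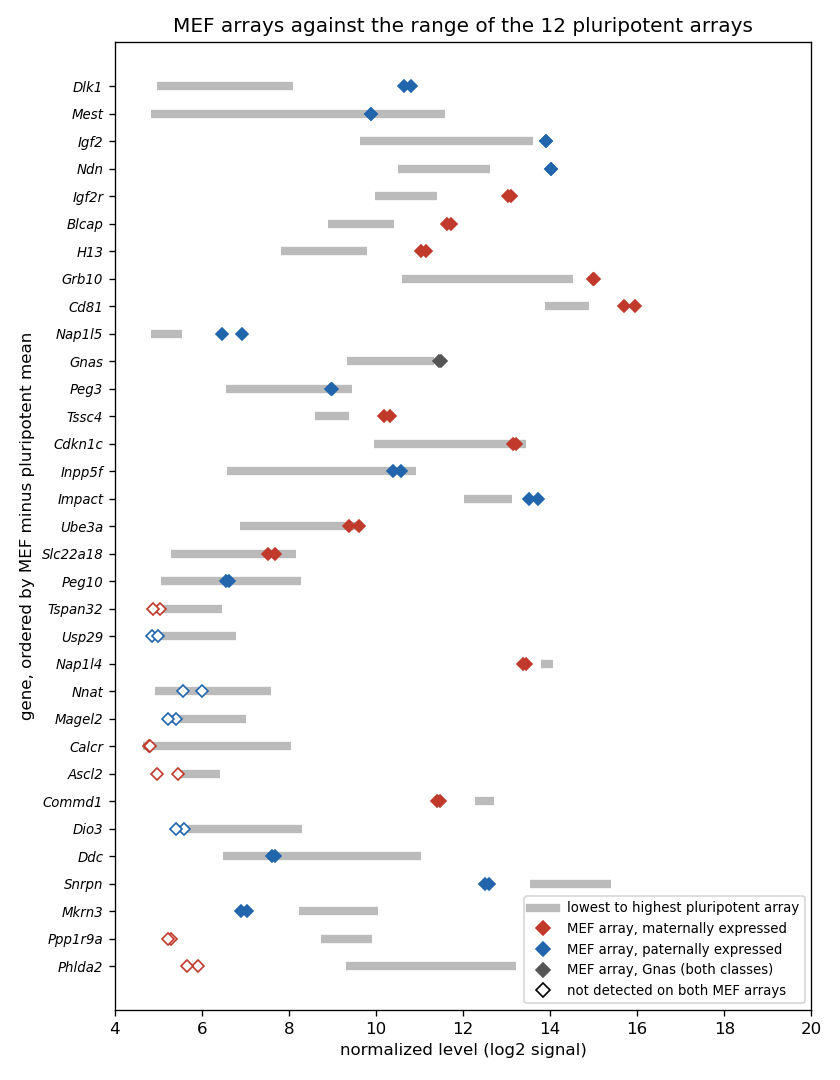
Level of each imprinted gene on the MEF arrays (diamonds, open where not detected on both arrays) against the range of the 12 pluripotent arrays (grey bars), in log2 signal, ordered by the MEF change. Dlk1 lies above its bar with 10.64 as its lower MEF value, and Phlda2 and Ppp1r9a lie below theirs.

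Of 19 genes listed for imprint maintenance and DNA methylation, 13 were tested, and Zfp57 was not among them. In 2i against serum RFP- cells 1 was higher and 2 lower (23.1%, against 39.7% of all tested genes). The de novo methyltransferase Dnmt3b fell by 1.38 log2 (SE 0.06, limma adjusted p 4.13e-07), from 15.10 and 15.13 to 13.72 and 13.76. Dnmt3l, its cofactor, read 15.46 and 15.46 in serum and 13.16 and 13.12 in 2i and was not called (limma adjusted p 0.0665), and the EpiSC arrays in the same model read 11.03 and 7.14. The maintenance factors Dnmt1 (0.16 log2), Uhrf1 (0.08 log2) and Trim28 (0.02 log2) were not called. Setdb1, the histone methyltransferase partner of TRIM28, was not called either (-0.28 log2).

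In EpiLCs against 2i, 2 were higher and 7 lower of 13 (69.2%, against 55.1% of all tested genes, 27.5% higher and 27.6% lower). Dppa3, which protects maternal methylation in the zygote, went from 12.34 and 12.36 to 6.39 and 6.00 (-6.15 log2, SE 0.11, limma adjusted p 4.33e-10), and in EpiSCs it was not detected, at least 99.5-fold below 2i. Dnmt3b was higher by 1.37 log2 and Dnmt1 was lower (-0.67 log2, limma adjusted p 0.000157). In MEFs 1 was higher and 10 lower (84.6%, near the 84% of all tested genes). Of 29 further imprinted genes outside the list of 47, 12 were tested. In 2i 3 were higher and 5 lower (66.7%, against 39.7% of all tested genes), among them Pon2, a paraoxonase gene (-1.75 log2, limma adjusted p 0.000135), and Cobl, an actin nucleator gene near Grb10 (0.95 log2, limma adjusted p 0.000634). In EpiLCs against 2i, 3 were higher and 7 lower (83.3%, against 55.1%), among them Cobl (-4.12 log2, SE 0.14, limma adjusted p 1.33e-08), beside -3.40 log2 for Ddc of the same cluster.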

How the data were processed

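The 47 imprinted genes and the further gene lists were chosen with earlier results of these data known. The deposited scanner table holds a non-normalized signal intensity per probe and array and, per the file headers, a detection p-value. GenomeStudio 2011.1 is named in the submitters' processing notes, and the sources used here do not give its settings. The authors also deposited log2 values, whose method no source used here states; they equal quantile-normalized log2 scanner signals within 0.01 for 100% of values and served as an alternative.

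Signals were corrected with normexp through the detection p-values (neqc, offset 16, limma 3.58.1, R 4.3.3), quantile-normalized and taken to log2. Of 25697 probes, 23978 had 1 symbol, 0 several and 1719 none. Each of 10481 genes was represented by its detected probe with the highest mean. All 47 genes could be named, and full statistics were given for up to 10 called genes per comparison by size of change. limma was fitted with 1 mean for each of the 7 groups over the 14 arrays (7 residual degrees of freedom, 2.5 from the prior), tested on simulated data. Fold bounds ("at least") set an undetected side at the lowest detected signal or its own signal, whichever was higher. Array medians were 142.6 to 209.4 in 12 arrays and 313.5 and 316.8 in EpiSCs, and 46.4% to 53.8% of probes were detected. The number of arrays limits the precision. No pairing was used: of 21 pairs of groups, 0 had same-numbered arrays deviating together with a correlation above 0.1. Alternatives were another offset, median scaling, the authors' values, no detection filter, the mean of all probes, an intensity trend, only the groups compared, a replicate block and each array left out. A further one, without both EpiSC arrays, was chosen after seeing the data.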

Additional observations from a re-analysis of the deposited data

How the results depend on the processing

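The number of imprinted genes called stayed within 1.5 times its main value in every comparison and alternative run, with 1 exception: EpiSCs against EpiLCs gave 11 in place of 17 when only those 2 groups entered the fit, which leaves 2 residual degrees of freedom. Leaving out each of the 14 arrays in turn gave 0 to 0 for RFP+ against RFP-, 14 to 23 for 2i against serum, 15 to 23 for EpiLCs and 22 to 26 for EpiSCs against 2i, 12 to 21 for EpiSCs against EpiLCs, 21 to 27 for the single-reporter line and 28 to 32 for MEFs. The replicate block, in a design whose numbers only name the arrays, gave 0, 19, 19, 24, 17, 25 and 30 for the comparisons in that order, and changed no count by over 1.5 times. Among changes called in the main run or the alternative, directions turned in 3 cases. Igf2 turned in EpiSCs against EpiLCs without EpiSC replicate 2 (-1.90 log2, and 2.08 log2 without EpiSC replicate 1). With the mean of all probes, Snrpn turned in the same comparison (-0.23 log2, limma adjusted p 0.0274) and Commd1 in the single-reporter line (-0.91 log2, limma adjusted p 6.57e-06). Directions also turned without a call in either run, in 59 cases with an array left out and in 17 under the other alternatives. The cause was not tested. Median scaling moved the median of all tested genes to -0.11 log2 in EpiLCs against 2i, -0.17 in EpiSCs against 2i and -0.22 in MEFs. Genes near the detection limit, such as Usp29, Nap1l5 and Ascl2, are limited by signal over background. A slide block was not run, because neither headers nor labels name slides.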
